A study of Mus musculus with 6 samples.

Results

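The glutamate transporter family Slc1 and the enzyme glutamine synthetase were followed in the outer eye wall of aged mice. These 8 genes, Slc1a1 to Slc1a7 and Glul, were taken out of 22180 measured genes by symbol, and for a gene with several probe sets the one of highest mean over all arrays was kept. RNA came from the complex of retinal pigment epithelium (RPE, the pigmented layer that supports the photoreceptors), choroid (the vascular layer behind it) and sclera (the fibrous coat of the eye). The first group held 3 samples from heterozygous 5XFAD mice, which carry human amyloid precursor protein and presenilin transgenes with familial Alzheimer's disease mutations, driven by the largely neuronal Thy1 promoter. The second group held 3 samples from non-transgenic wild-type littermates. All animals were 12 months old and untreated, and each sample was hybridised to 1 Affymetrix whole-transcript array. The labels do not say whether a sample held 1 animal or several, so the p-values given further on measure how these samples scatter, part of which may be technical. All levels are deposited log2 intensities, in which 1 unit is a doubling of signal, and a difference is the 5XFAD mean minus the wild-type mean. Each SE is the moderated standard error of limma, a linear model that draws each gene's variance toward that of all genes. It can be smaller or larger than the SE that a gene's own SDs would give.

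Glutamate is the main excitatory transmitter of the retina, and it has to be cleared from the extracellular space by carriers that couple its uptake to the sodium gradient. Slc1a3 (GLAST) is the principal carrier of Müller glia, Slc1a2 (GLT1) is found in astrocytes and in some retinal neurons, Slc1a1 (EAAC1) is found in neurons and in transporting epithelia such as the kidney tubule, Slc1a6 is best known from cerebellar Purkinje cells, and Slc1a7 from photoreceptors and bipolar cells. Slc1a4 and Slc1a5 belong to the same family but exchange neutral amino acids such as serine, alanine and glutamine. Glul encodes glutamine synthetase, which turns glutamate and ammonia into glutamine and is a classical marker of Müller glia and astrocytes.

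Slc1a1 and Slc1a3 were singled out because their differences between the genotypes pointed in opposite directions. Their genotype differences, and those of the other 6 genes from the same comparison, are therefore given as descriptions without a test. The 250 bases upstream of the annotated start are shown for this pair, as RefSeq sequence on build GRCm38.p6, 5′ to 3′ on the strand of the gene. Capitals mark matches on either strand to the CCAAT box, the GC box GGGCGG, the TATA box written as TATAAA, the E-box CACGTG or the cyclic AMP response element TGACGTCA.
Slc1a1, chr19:28834885-28835134, plus strand: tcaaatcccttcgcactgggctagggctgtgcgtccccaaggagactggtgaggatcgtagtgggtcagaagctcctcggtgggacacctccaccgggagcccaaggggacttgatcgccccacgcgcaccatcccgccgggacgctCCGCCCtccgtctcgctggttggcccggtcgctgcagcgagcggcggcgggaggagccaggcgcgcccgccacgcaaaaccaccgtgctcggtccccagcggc
Slc1a3, chr15:8710808-8711057, minus strand: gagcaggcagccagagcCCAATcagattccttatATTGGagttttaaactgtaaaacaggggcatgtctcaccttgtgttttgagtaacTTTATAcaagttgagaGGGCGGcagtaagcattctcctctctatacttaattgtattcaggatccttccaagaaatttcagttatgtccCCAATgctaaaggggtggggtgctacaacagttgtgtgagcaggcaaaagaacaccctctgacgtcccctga
The Slc1a1 window had a G and C content of 70.4% with 27 CpG dinucleotides, and the Slc1a3 window had 44.8% with 2. The median of 32851 promoter windows of this length was 52.4%, with 6 CpG. The Slc1a1 window held 1 match to the GC box, a motif present in 32.7% of all windows. The Slc1a3 window held 3 matches to the CCAAT box, 1 to the GC box and 1 to the TATA box, motifs present in 33.8%, 32.7% and 12.4% of all windows. The E-box (6.02% of all windows) and the cyclic AMP response element (1.55%) had no match in either window. These matches describe letters in the windows, and no binding was measured.

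Slc1a1 had a bright signal, at percentile 98.8 of all probe sets, and the most negative difference of the 8 genes. Its log2 intensity was 10.09, 9.90 and 10.22 in 5XFAD replicates 1, 2 and 3, and 10.64, 11.06 and 10.88 in wild-type replicates 1, 2 and 3. Every 5XFAD array lay below every wild-type array, and the highest 5XFAD array was replicate 3. The means were 10.07 ± 0.16 in 5XFAD and 10.86 ± 0.21 in wild type (SD, n = 3 each), a difference of -0.79 ± 0.14 (log2, ± SE), or 0.578 times the wild-type signal. With each array left out in turn the difference ran from -0.90 to -0.69. In RNA from whole tissue, fewer cells of a type and less RNA per cell cannot be told apart.

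Slc1a3 had the only positive difference among the 8 genes, with a far wider spread. Its log2 intensity was 6.16, 5.11 and 6.05 in the 5XFAD replicates, and 4.77, 5.10 and 4.48 in the wild-type replicates. The arrays did not overlap, but 5XFAD replicate 2 (5.11) and wild-type replicate 2 (5.10) had nearly the same signal, whereas 5XFAD replicates 1 and 3 lay clearly above all others. The means were 5.77 ± 0.58 in 5XFAD and 4.79 ± 0.31 in wild type (SD, n = 3 each), a difference of 0.99 ± 0.26 (log2, ± SE), or 1.98-fold. This moderated SE is smaller than the gene's own SDs would give. Leaving out 5XFAD replicate 2 gave a difference of 1.32, and leaving out replicate 1 of that group gave 0.79. The gene was the dimmest of the 8, at percentile 42.5 of all probe sets, where background signal compresses fold changes. No detection calls were used, so whether its wild-type signal stood above background was not tested.

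**Figure D1:**
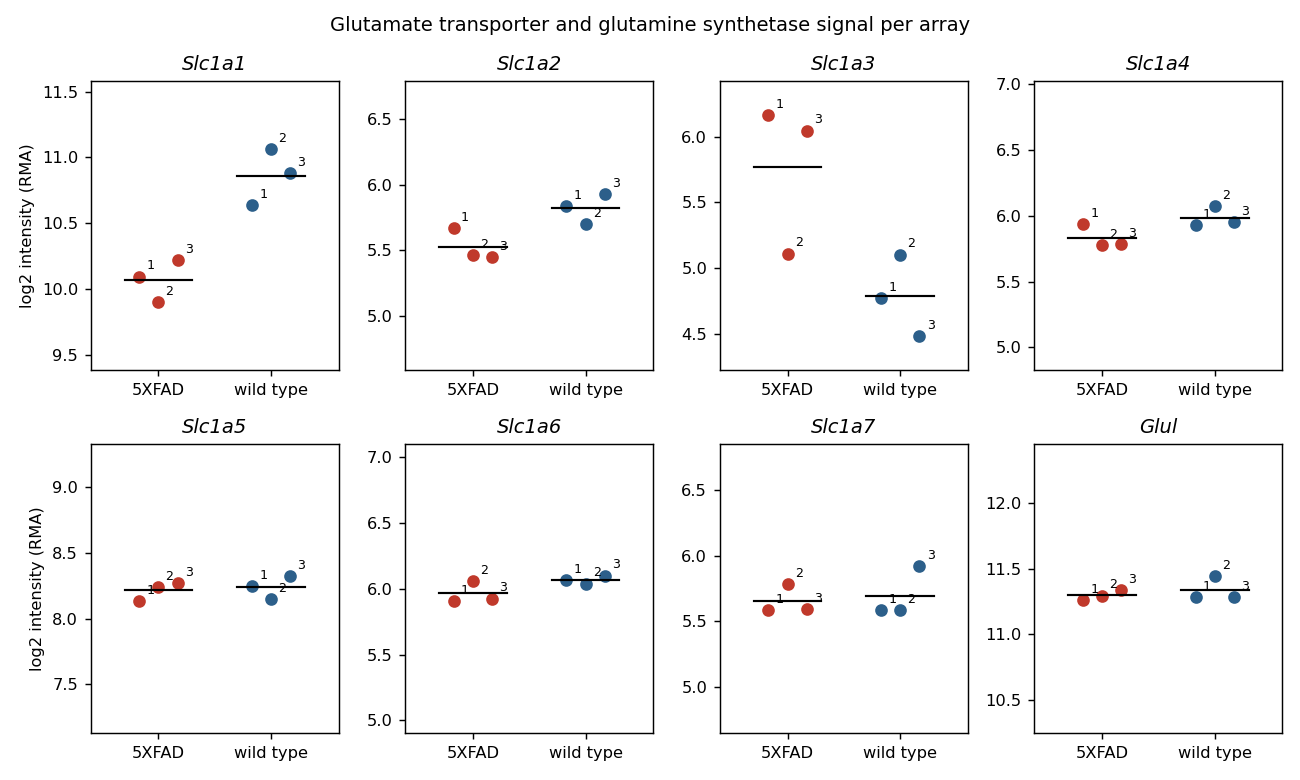
Log2 intensity (RMA) of each of the 8 genes per array, 3 5XFAD arrays at the left and 3 wild-type arrays at the right of each panel, with replicate numbers beside the points and group means as black lines. All panels span the same height on the log2 scale. Slc1a1 lies between 9.90 and 10.22 in 5XFAD and between 10.64 and 11.06 in wild type, and Slc1a3 replicate 2 of both groups lies near 5.1.

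The remaining glutamate carriers showed smaller differences. Slc1a2, the astrocytic transporter, was at 5.67, 5.47 and 5.45 in 5XFAD and 5.84, 5.70 and 5.93 in wild type. The groups did not overlap, but the highest 5XFAD array (replicate 1) and the lowest wild-type array (replicate 2) were only hundredths of a unit apart. Its difference was -0.29 ± 0.11 (log2, ± SE, n = 3 each). Slc1a6 was at 5.91, 6.06 and 5.93 in 5XFAD and 6.07, 6.04 and 6.10 in wild type, a difference of -0.11 ± 0.10 with overlapping arrays. Slc1a7, the retinal transporter, was at 5.58, 5.78 and 5.59 in 5XFAD and 5.58, 5.59 and 5.92 in wild type. A single wild-type array, replicate 3, was the highest of the 6, and the difference of -0.04 ± 0.12 turned to 0.07 without it. Slc1a2, Slc1a6 and Slc1a7 lay at percentiles 50.2, 56.8 and 50.2 of all probe sets, in the middle of the array's signal range. No detection calls were used, so whether their transcripts were present at all was not tested.

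The neutral amino acid exchangers differed little. Slc1a4 was at 5.94, 5.78 and 5.78 in 5XFAD and 5.93, 6.07 and 5.96 in wild type, a difference of -0.15 ± 0.10 (log2, ± SE, n = 3 each). Only 5XFAD replicate 1 reached the wild-type range. Slc1a5, the glutamine exchanger, had a bright signal (percentile 90.0 of all probe sets). It was at 8.13, 8.24 and 8.27 in 5XFAD and 8.25, 8.15 and 8.33 in wild type, with a difference of -0.03 ± 0.10. The 2 groups were intermingled, and the second Slc1a5 probe set, which was dimmer, gave -0.05.

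Glul, glutamine synthetase, had a very bright and steady signal, at percentile 99.5 of all probe sets. It was at 11.26, 11.29 and 11.34 in 5XFAD and 11.28, 11.44 and 11.28 in wild type. The arrays of the groups overlapped, and the difference was -0.04 ± 0.10 (log2, ± SE, n = 3 each). A second and much dimmer Glul probe set was at 6.16, 6.78 and 6.59 in 5XFAD and 6.46, 6.57 and 6.24 in wild type. It gave a difference of the other sign, 0.08, and its 5XFAD arrays had an SD of 0.32, against 0.04 in the brighter probe set.

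Of the 8 genes 1 had a positive and 7 a negative difference, with a median of -0.07, beside 47.2% positive and a median of -0.01 among all genes. The arrays of the groups did not overlap for 3 of the 8, beside 11.3% of all genes: 1 gene was above in 5XFAD (4.72% of all genes) and 2 were below (6.62%). In limma 5 of 22180 genes (0.0225%) passed a Benjamini-Hochberg adjusted p under 0.05 over all genes, and none of the 8 was among them. Because the comparison had been used to single out the pair, nothing is read from these counts, and limma calls of the 8 genes are not used. The signs of Slc1a1, Slc1a2, Slc1a3, Slc1a4 and Slc1a6 held with each array left out, after quantile normalization and after median centring, while those of Slc1a5, Slc1a7 and Glul turned under at least 1 alternative. For Slc1a1, Slc1a2 and Slc1a3, whose arrays did not overlap, leaving out 1 array could not turn the sign. Their held signs are therefore no measure of robustness.

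**Figure D2:**
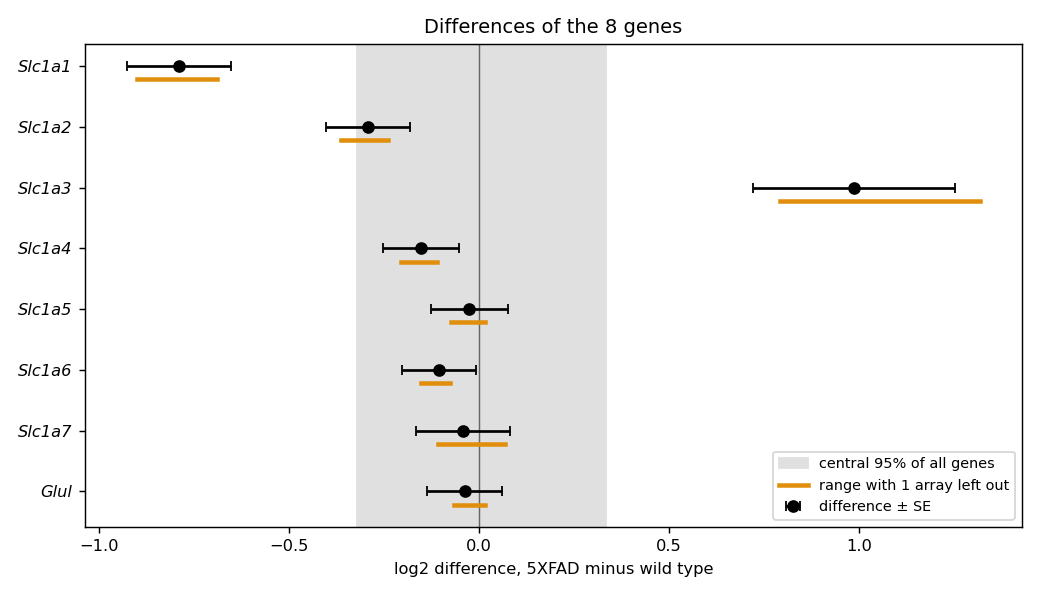
Log2 difference (5XFAD minus wild type) of each of the 8 genes as a point with its SE, the range with 1 array left out as an orange line, and the central 95% of all 22180 genes (-0.32 to 0.34) as a grey band. Slc1a1 (-0.79) and Slc1a3 (0.99) lie outside the band on opposite sides, and the other 6 points lie within it.

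Genes with the most similar course over the 6 arrays were looked up for the pair, by the root-mean-square difference between log2 profiles that were each centred on their own mean. For Slc1a1 the nearest were Tbc1d2, Trhde, Itgav, Cdr2 and F3, at 0.067 to 0.101 log2 units. Trhde encodes an enzyme that degrades thyrotropin-releasing hormone, Itgav the integrin subunit that takes part in outer segment uptake by the RPE, and F3 tissue factor. In all 5 the 5XFAD arrays lay below the wild-type arrays, with differences from -0.83 to -0.68. For Slc1a3 the nearest were Defb9, Sned1, Epha5, Zfp97 and Pax6os1, at 0.137 to 0.297 log2 units. Defb9 encodes a beta-defensin and Epha5 an ephrin receptor. Their differences ran from 0.51 to 1.07, and the arrays of Zfp97 overlapped. These genes were picked for likeness among all genes over 6 arrays, so their likeness is a description only.

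Other genes of glutamate handling, listed by role, showed no change that passed the test. They were compared on the same 6 arrays, and the list was chosen with earlier results known, so they are not independent of the pair. Of 57 listed genes 51 had a probe set with a single symbol. In limma 0 passed an adjusted p under 0.05, beside 0.0225% of all genes. At an unadjusted p below 0.05 there were 6 (3 higher and 3 lower), or 11.8%, beside 6.28% of all genes. The median difference was -0.03, with 18 positive and 33 negative, beside a median of -0.01 and 47.2% positive among all genes. The arrays of the groups did not overlap for 1 gene above in 5XFAD (4.72% of all genes) and 8 below (6.62%).

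Carriers of glutamine and cystine held the largest differences of this list. Slc7a11, the cystine-glutamate antiporter that exports glutamate in exchange for cystine, was at 7.15, 7.34 and 6.70 in 5XFAD and 5.96, 6.73 and 5.78 in wild type. Its difference was 0.91 ± 0.25 (limma, Benjamini-Hochberg adjusted p = 0.50), and 5XFAD replicate 3 lay just under wild-type replicate 2. Slc7a8, a carrier of neutral amino acids, differed by 0.60 ± 0.26 with overlapping arrays (limma, Benjamini-Hochberg adjusted p = 0.79). Slc38a3, which carries glutamine, was at 9.52, 9.33 and 9.39 in 5XFAD and 9.63, 9.95 and 9.75 in wild type, so that the groups did not overlap. Its difference was -0.36 ± 0.12 (limma, Benjamini-Hochberg adjusted p = 0.64). Of 14 measured carriers and binding partners, 7 had a positive and 7 a negative difference.

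Among ionotropic receptor genes, 6 of 16 were positive and 10 negative. Grik1, a kainate receptor subunit, was at 5.36, 5.33 and 5.32 in 5XFAD and 5.63, 6.25 and 5.87 in wild type, a difference of -0.58 ± 0.15 (limma, Benjamini-Hochberg adjusted p = 0.45). Grid1, a delta-type subunit, differed by 0.37 ± 0.11 and Grin2a, an NMDA receptor subunit, by -0.33 ± 0.11 (limma, Benjamini-Hochberg adjusted p = 0.58 and 0.68). In each of these 3 genes, of 16 measured, the arrays of the groups did not overlap, beside 11.3% of all genes. All 7 measured metabotropic receptor genes had a negative difference, from -0.26 in Grm6, the receptor of ON bipolar cells, to values near 0. Among all genes 47.2% had a positive difference. Grm2 and Grm3 differed by -0.17 and -0.12. None of the 7 was under an unadjusted p of 0.05 in limma, beside 6.28% of all genes (lowest Benjamini-Hochberg adjusted p = 0.81, Grm6). Receptor signals were mostly dim, with a median percentile of 48.0 for ionotropic and 34.8 for metabotropic genes.

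Genes that load, make or break down glutamate showed small differences. Slc17a6, a vesicular glutamate transporter, differed by 0.25 ± 0.11, Gclc, which encodes the catalytic subunit that joins glutamate to cysteine for glutathione, by -0.18 ± 0.11, and the glutamate decarboxylase gene Gad2 by -0.17 ± 0.11 (limma, Benjamini-Hochberg adjusted p = 0.81, 0.89 and 0.91). Of 14 measured genes 5 were positive and 9 negative, and 0 were under an unadjusted p of 0.05 in limma, beside 6.28% of all genes.

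**Figure D3:**
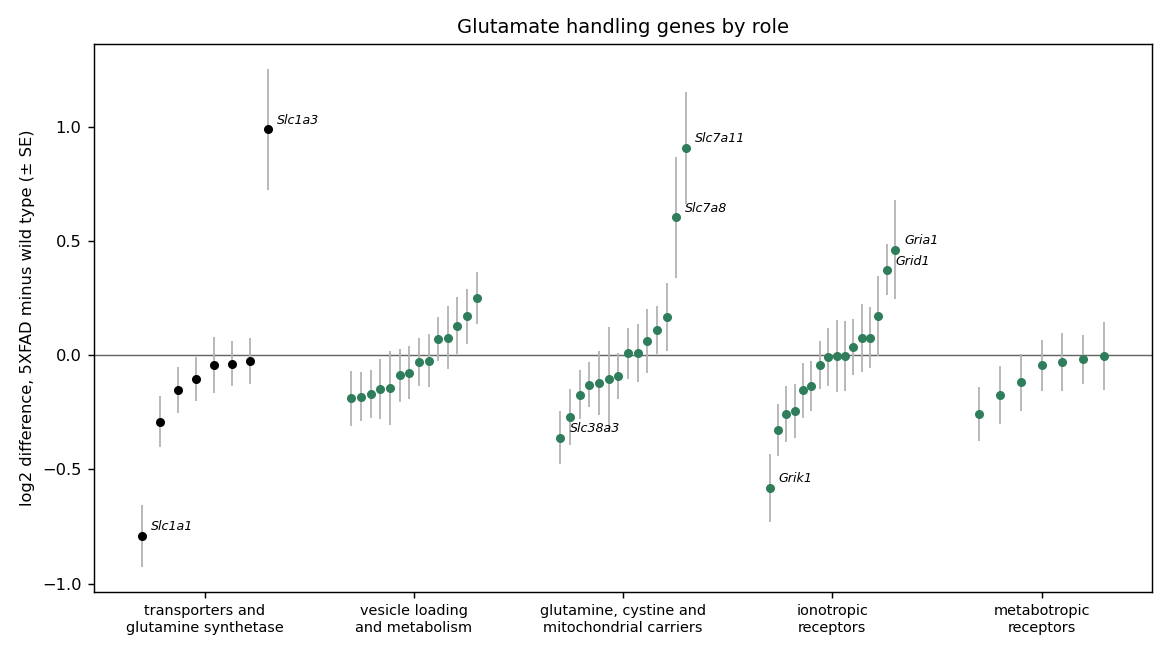
Log2 difference (5XFAD minus wild type) with SE of the 8 genes (black) and of 51 other glutamate handling genes (green), grouped by role and ordered by size within each role. Slc7a11 (0.91) and Slc7a8 (0.60) are the highest green points, and Grik1 (-0.58) is the lowest. The metabolism and metabotropic receptor genes run from -0.26 (Grm6) to 0.25 (Slc17a6).

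Marker lists of the cells that the dissection can hold were set beside the pair. The counts of signs in these lists stand beside 47.2% positive among all genes. The markers of the labelled tissue were bright, with a median percentile of 99.7 for the RPE, 98.2 for fibroblast and 99.0 for melanocyte genes, except the RPE channel gene Best1 at percentile 40.6. The RPE list mean over 10 genes was 10.86 to 10.93 in 5XFAD and 11.22 to 11.29 in wild type. The groups did not overlap, 8 of 10 genes were negative, and the median difference was -0.41. In limma 7 of the 10 were lower at an unadjusted p below 0.05, beside 3.39% of all genes, and 0 passed the adjusted threshold, beside 0.0225%. The difference of Slc1a1 (-0.79) was more negative than that of any of the 10, of which the RPE opsin gene Rrh (-0.64) and the retinol-esterifying enzyme gene Lrat (-0.62) were the most negative. The part that the RPE-wide difference had in that of Slc1a1 was not tested.

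Markers of Müller glia and astrocytes, the cells in which Slc1a3 and Glul are best known, overlapped between the groups as a list. Their mean was 8.25 to 8.58 in 5XFAD and 8.10 to 8.38 in wild type, 8 of 10 genes were positive, and the median difference was 0.12. At an unadjusted p below 0.05 limma gave 2 higher and 1 lower, beside 2.89% and 3.39% of all genes, and 0 passed the adjusted threshold, beside 0.0225%. Gfap, the glial filament gene, was at 7.68, 5.54 and 6.51 in 5XFAD and 5.62, 6.13 and 5.86 in wild type. Gfap, like Slc1a3, was highest in 5XFAD replicates 1 and 3, but its wild-type arrays had another order. Aqp4 was at 6.32, 5.78 and 5.81 in 5XFAD and 5.35, 5.87 and 5.16 in wild type. Its lowest 5XFAD array was also replicate 2, just under replicate 3, and its wild-type arrays had the same order as those of Slc1a3. Other genes of the list took another course within 5XFAD. Dkk3, a secreted Wnt pathway modulator, was the only gene of the list whose arrays did not overlap. It was at 10.62, 10.84 and 10.64 in 5XFAD and 10.08, 10.51 and 9.97 in wild type, so that 5XFAD replicate 2 was its highest array. Its wild-type arrays had the same order as those of Slc1a3 and Aqp4. Slc7a11, from outside the list, also had this wild-type order, so it was not particular to glial markers. Aldh1l1, an astrocytic folate enzyme, was also highest within 5XFAD in replicate 2 (7.47). Rlbp1, a retinaldehyde carrier that Müller glia share with the RPE, had the most negative difference of the list (-0.54), and Glul (-0.04) differed little. Rlbp1 and Dkk3 lay at percentiles 99.6 and 98.8 of all probe sets, as bright as markers of the labelled tissue, whereas Gfap and Aqp4 lay at 60.4 and 51.1. Which cells gave the signal of this list was not tested, so its mean is no readout of glia alone. The part of glial RNA in the Slc1a3 difference was not tested.

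The signal of photoreceptor genes varied between arrays, and whether retina was carried over in the dissection was not tested. In the rod list 8 of 10 genes were measured, all 8 with a negative difference, beside 47.2% positive among all genes. The rod list mean ran from 5.65 to 6.83 in 5XFAD and from 5.72 to 6.90 in wild type, and 5XFAD replicate 3 and wild-type replicate 2 were the lowest. The cone list (8 of 8 measured, 5 negative) ran from 4.84 to 5.11 in 5XFAD and from 5.05 to 5.22 in wild type. The surface epithelium and skeletal muscle lists differed most between the genotypes: the first was at 6.53 to 7.30 in 5XFAD and 4.83 to 4.95 in wild type, and the second at 6.43 to 7.85 in 5XFAD and 5.70 to 7.35 in wild type. In the surface epithelium list 7 of 8 genes were measured, all 7 with a positive difference. The keratin genes Krt4, Krt6a, Krt13 and Krt15 passed the adjusted threshold in limma with differences of 1.55 to 3.55. These were 4 of 7 measured genes, beside 0.0225% of all genes. No other gene of any marker list passed. Krt4 kept its call with any array left out, Krt6a and Krt15 lost theirs without wild-type replicate 3, and Krt13 lost its call when 5XFAD replicate 3 or either of wild-type replicates 1 and 3 was left out. The part of retinal, surface epithelial or muscle RNA in the differences of the 8 genes was not tested.

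**Figure D4:**
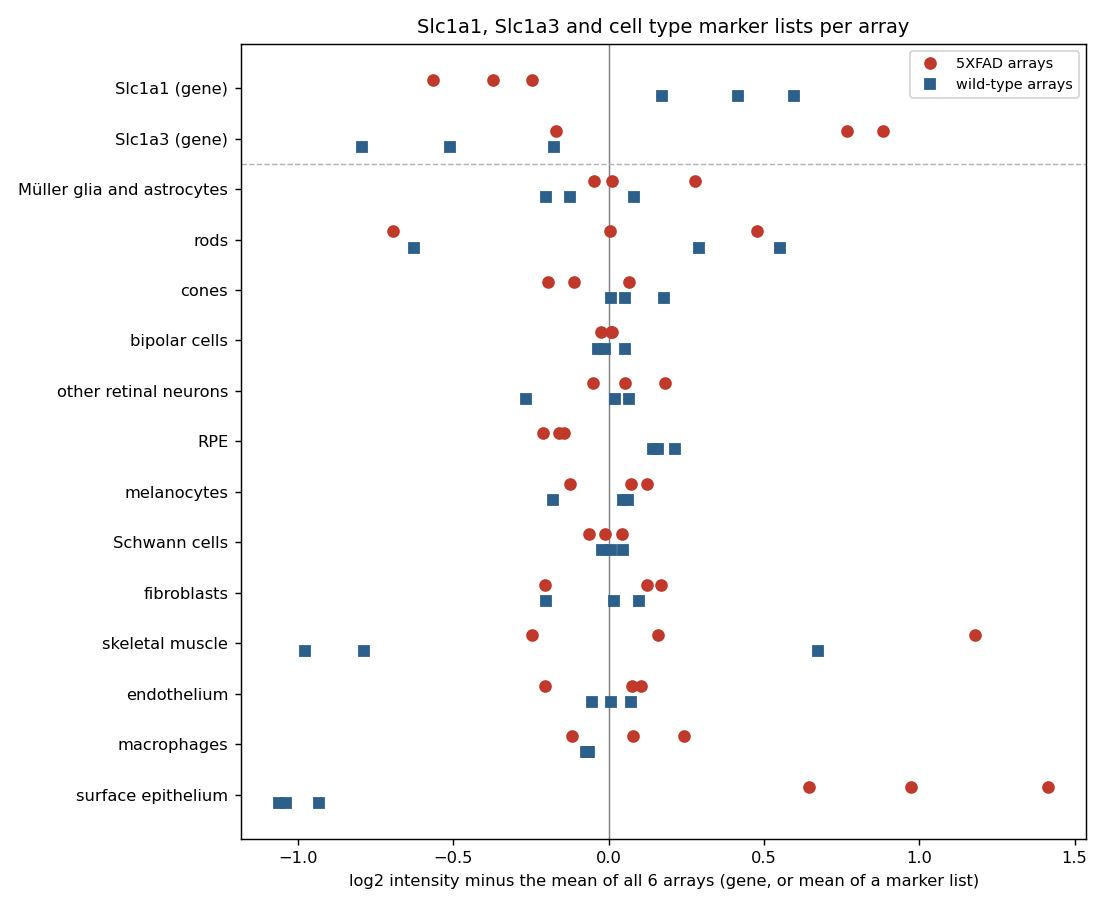
Log2 intensity of Slc1a1 and Slc1a3 and the mean of each marker list per array, each minus its mean over all 6 arrays, with 5XFAD arrays as red circles above wild-type arrays as blue squares. The RPE list and Slc1a1 have all 5XFAD arrays on the low side, the surface epithelium list has all on the high side, and the Müller glia list overlaps.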

How the data were processed

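Total RNA was labelled with biotin and hybridised to 6 whole-transcript mouse arrays, 3 per genotype, per the labels. The deposited values are log2 intensities per probe set, made by the authors with Affymetrix Expression Console 1.1 and RMA (background correction, quantile normalization, probe set summary), per the submitters' processing notes. Whether probe sets were filtered or animals pooled is not given in the sources used here. Array medians lay between 5.59 and 5.71, and correlations between arrays over all probe sets between 0.981 and 0.990. Precision is limited by having 3 arrays a group.

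Of 33793 probe sets, 23521 had 1 symbol in the platform annotation, 1814 several and 8458 none, and the first kind was used. The 10 probe sets of the 8 genes matched RefSeq by Entrez identifier with no change of symbol. A linear model with genotype as its only term was fitted in limma 3.58.1 (R 4.3.3, moderated two-sided test), adjusted by Benjamini-Hochberg over 22180 genes at a threshold of 0.05, and the steps were tested on simulated data. Genes, lists and tests were chosen with earlier results of these data known. Named were the 8 genes, the 3 genes of smallest p per pathway role, the 5 nearest profiles (predicted genes, receptors of smell and small RNAs passed over), marker genes past the adjusted threshold and, of the other marker lists, the 2 genes of largest difference where the list bears on a result. Dkk3, Aldh1l1, Aqp4 and Best1 were named after their values were seen. A planned comparison of protein sequences was not run. The fit was repeated with a replicate block, without the dimmest 30% or 50% of genes, after quantile normalization or median centring, with a trended and robust prior, with averaged probe sets, with the other probe set of a gene, and with each array left out in turn.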

Additional observations from a re-analysis of the deposited data

How the results depend on the processing

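The replicate block, the filters on dim genes and the trended and robust prior cannot change a gene's log2 difference here, nor can averaging probe sets for a gene with 1. Of the 68 other values of the 8 genes, 67 moved by less than the SD between replicates. The exception was the second Glul probe set (0.08 in place of -0.04). Most of the 68 came from leaving out 1 array of a group of 3. That step cannot move a difference by as much as this SD, so the count is no measure of robustness. Genes past the adjusted threshold in limma numbered 5 (5 higher, 0 lower), against 8 without the dimmest 30% of genes (6 higher, 2 lower), 7 with quantile normalization (6 higher, 1 lower), 9 with median centring (9 higher, 0 lower) and 9 with a trended and robust prior (6 higher, 3 lower). With 1 array left out they numbered from 3 (without wild-type replicate 3) to 19 (without wild-type replicate 2). No glutamate pathway gene passed under any alternative run. Pathway genes at an unadjusted p under 0.05 in limma numbered 6, against 3 without the dimmest 50% of genes, where fewer genes were tested, and from 4 to 11 with 1 array left out, the highest without 5XFAD replicate 3. Among the 8 genes 1 had a positive difference, against 0 without the dimmest 50% of genes, where 3 of the 8 were kept, 2 with the mean of all probe sets, and 1 to 3 with 1 array left out (3 without wild-type replicate 3, 2 without 5XFAD replicate 1 or wild-type replicate 2). The cause of the other shifts was not tested.

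The replicate numbers did not pair the arrays throughout: deviations from the group means correlated at -0.06 to 0.13 between same-numbered arrays and at -0.08 to 0.13 between the others. Over 0.1 were 1 same-numbered pair (replicate 3, 0.13) and 2 others. These were 5XFAD replicate 1 with wild-type replicate 2 (0.12) and 5XFAD replicate 2 with wild-type replicate 1 (0.13). Together the pairs over 0.1 used each of the 6 arrays once, and all other correlations were negative. This matching was seen only after the values were known. What it stands for was not tested, and no fit used it. With the replicate block limma gave 6 genes past the adjusted threshold, 8 pathway genes at an unadjusted p under 0.05, 0 pathway genes past the adjusted threshold and 1 of the 8 genes with a positive difference.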
